A study of Mus musculus with 8 samples.

Results

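The genes described here encode the LINC complex and its partners at the nuclear envelope: the nesprins Syne1, Syne2 and Syne3, the SUN proteins Sun1 and Sun2, the lamins Lmna, Lmnb1 and Lmnb2, and emerin, Emd. Their members in the data are the regions of the deposited ATAC-seq table whose gene name is one of these 9, which gave 444 regions of 489637. Syne1 held 210 of them, Syne3 55, Lmnb1 44, Syne2 42, Sun1 30, Lmna 25, Sun2 22, and Lmnb2 and Emd 8 each. The set of genes was chosen by results of this same comparison, in which regions of Syne1 had shown low values in the knockout libraries, so the Syne1 differences are given as a description. Where a Syne1 region is said to pass a threshold, that is part of the description and supports nothing. A filter on low signal left 126 of the 444 regions for testing, with 38 in Syne1, 17 each in Sun2 and Lmna, 16 in Syne3, 12 in Syne2, 10 in Lmnb1, 9 in Sun1, 4 in Lmnb2 and 3 in Emd.

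SUN proteins sit in the inner nuclear membrane and hold the KASH domains of nesprins in the space between the membranes, so that the cytoskeleton is coupled to the lamina inside. The long nesprins of Syne1 and Syne2 bind actin, nesprin-3 of Syne3 binds plectin and through it intermediate filaments, and short nesprins made from internal promoters of Syne1 and Syne2 are the forms known from muscle nuclei. In the multinucleate muscle fibre the complex spaces the nuclei and gathers some of them under the neuromuscular junction, and mutations in Lmna, Emd, Syne1 and Syne2 have been linked to Emery-Dreifuss muscular dystrophy.

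ATAC-seq measures open chromatin by the insertion of sequencing adapters by a transposase. The libraries came from nuclei of mouse gastrocnemius, a calf muscle, at 6 months of age, and every library carried the genotype label Cre+:iMSBmal1 fl/fl. A group of 4 libraries was labelled as treated with Vehicle and the other 4, named iMSBmal1KO, as treated with Tamoxifen, the drug that activates an inducible Cre. The name stands for an inducible knockout of the clock gene Bmal1 in muscle. The labels do not give the promoter that drives Cre, the time between treatment and collection or the time of day, no group had Tamoxifen without the knockout, and drug and deletion cannot be told apart. The labels state that 2 whole muscles went into a sample, and nothing says whether the 4 samples of a group were 4 animals, so p-values measure the spread between these samples, which may be technical. In nuclei of whole muscle, fewer nuclei of a type and less open DNA per nucleus cannot be told apart.

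Depth ran from 4.31 M read equivalents in Vehicle replicate 4 to 29.5 M in iMSBmal1KO replicate 1 (M, units of 1e+06). Vehicle replicate 4 stood apart, with 24.9% of all regions at 0 and a median correlation of 0.82 with the other libraries against 0.91 to 0.92. Mitochondrial regions held 16.5% of its read equivalents, against 1.11% to 5.51% in the other libraries. Bmal1 itself, listed as Arntl, had summed signals of 2688, 2248, 2557 and 1942 under Vehicle and 3023, 3421, 3154 and 3315 under iMSBmal1KO. Its limma adjusted p over all genes was 0.374, and accessibility of the gene does not check a deleted exon that the labels do not name. Across all tested regions the median log2 change was 0.12 (iMSBmal1KO minus Vehicle), and 0.01 after loess scaling between libraries, so changes of gene groups are also given relative to this shift.

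The starts of Syne1 and Lmna are shown as sequence because each gene has several and the data bear on which of them were open. The 250 bases before each start were taken from RefSeq (GRCm38.p6), which held 13 promoters for 8 of the 9 genes, and the coordinates of 8 of the 9 genes in the deposited table lay within 1 kb of that build at both ends. They are written 5′ to 3′ on the strand of the gene, the minus strand for all 5. Capitals mark CAGCTG, an E-box of the kind that myogenic factors bind, and AGGTCA, a nuclear receptor half-site, each searched on both strands.
Syne1 long start, chr10:5550693-5550942: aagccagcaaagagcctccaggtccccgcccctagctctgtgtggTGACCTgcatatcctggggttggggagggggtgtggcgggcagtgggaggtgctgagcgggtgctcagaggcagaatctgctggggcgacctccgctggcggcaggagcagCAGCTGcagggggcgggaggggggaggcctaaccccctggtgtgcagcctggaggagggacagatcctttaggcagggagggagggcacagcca
Syne1 middle start, chr10:5488315-5488564: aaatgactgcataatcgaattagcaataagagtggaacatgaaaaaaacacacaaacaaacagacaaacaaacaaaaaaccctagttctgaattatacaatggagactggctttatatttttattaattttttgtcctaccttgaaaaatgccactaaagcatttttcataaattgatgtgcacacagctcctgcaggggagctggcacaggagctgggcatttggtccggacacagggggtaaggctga
Syne1 last start, chr10:5069064-5069313: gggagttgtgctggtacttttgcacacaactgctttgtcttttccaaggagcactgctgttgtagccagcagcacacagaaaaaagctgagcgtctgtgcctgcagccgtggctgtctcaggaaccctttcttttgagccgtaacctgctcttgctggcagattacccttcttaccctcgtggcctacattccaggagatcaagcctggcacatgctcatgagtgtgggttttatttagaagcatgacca
Lmna long start, chr3:88503353-88503602: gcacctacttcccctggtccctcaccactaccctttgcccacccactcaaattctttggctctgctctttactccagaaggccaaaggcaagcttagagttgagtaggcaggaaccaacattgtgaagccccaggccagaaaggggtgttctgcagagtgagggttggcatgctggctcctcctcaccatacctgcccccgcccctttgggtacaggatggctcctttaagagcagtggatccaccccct
Lmna short start, chr3:88493313-88493562: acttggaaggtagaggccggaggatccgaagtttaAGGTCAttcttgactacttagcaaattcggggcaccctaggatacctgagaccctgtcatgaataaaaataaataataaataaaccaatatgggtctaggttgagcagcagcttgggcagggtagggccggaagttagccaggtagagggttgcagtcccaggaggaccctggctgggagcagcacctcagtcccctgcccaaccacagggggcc

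The long Syne1 start held both motifs, the half-site on the opposite strand, and the short Lmna start held the half-site. The myogenic E-box was present in 13.0% and the half-site in 14.0% of 32851 RefSeq promoter windows of 250 bases. The clock E-box CACGTG, the letters that Bmal1 and its partner bind, was in 0 of the 13 windows of these genes and in 6.02% of all windows. These windows include none for Lmnb1 and none for the start of Syne1-206, a shorter Syne1 transcript described below. The sequence of the intron 2 regions of Syne1-206 was not searched. A match is a description of the letters in the window, and the absence of one says only that these letters were not there.

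Neither the long nor the middle Syne1 start had a region that could be tested. The table placed 5 weak regions within 1 kb of the start of Syne1-205, the transcript that spans the whole gene (chromosome 10, 5020917 to 5550678), with a summed signal of 25.4 ± 12.4 in Vehicle and 17.8 ± 4.36 in iMSBmal1KO (SD, n = 4 libraries each). The last start, by contrast, lay inside a strong region, chromosome 10, 5068613 to 5069382, which the table assigns to Gm10097, an RNA on the opposite strand, and which is therefore not a member by name. It held 743, 647, 448 and 450 in Vehicle, in the order of the replicate numbers as throughout, and 653, 774, 731 and 849 in iMSBmal1KO. The groups overlapped, and the log2 change was 0.42 ± 0.20 (SE) at a limma adjusted p of 0.535. At 743 signal per kb in Vehicle it stood at the percentile 87.8 among 37793 tested start regions of all genes, whose median was 203 per kb.

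Another Syne1 start, that of Syne1-206 (5117100 to 5194707), lies between these and is an annotated start of a shorter coding transcript. Its region, 5194424 to 5195023, held 359, 339, 297 and 306 in Vehicle and 292, 256, 214 and 256 in iMSBmal1KO. Every Vehicle value lay above every iMSBmal1KO value, as in 1.87% of all tested regions. The log2 change was -0.36 ± 0.19 (SE) at a limma adjusted p of 0.563. At 543 per kb in Vehicle it stood at the percentile 80.8. The start of Syne1-209, an annotated retained-intron transcript, was weak at 13.7 ± 4.08 against 10.1 ± 5.47 (SD, n = 4 libraries each), and the regions near the start of Syne1-203 were not tested.

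The lowest log2 changes among tested Syne1 regions lay in intron 2 of Syne1-206, a stretch of 8 regions over 1108 bp (chromosome 10, 5190823 to 5191930) that begins 2.78 kb downstream of the Syne1-206 start. The strongest, 5190823 to 5190963, held 74.6, 88.4, 137 and 81.3 in Vehicle and 11.1, 13.4, 14.3 and 8.78 in iMSBmal1KO. Its mean went from 95.4 ± 28.5 to 11.9 ± 2.47 (SD, n = 4 libraries each), a log2 change of -2.88 ± 0.29 (SE), and the lowest Vehicle value was far above the highest iMSBmal1KO value. The region that abuts it, 5190964 to 5191072, held 50.1, 46.2, 75.0 and 21.9 in Vehicle and 14.1, 6.69, 7.16 and 8.78 in iMSBmal1KO, a log2 change of -2.21 ± 0.37 (SE). These were the only member regions past the limma threshold of an adjusted p under 0.05, and both were lower, beside 0.0568% of all tested regions called lower. As the genes were selected on this contrast, nothing is read from that count. The second region was not past it without Vehicle replicate 1 or 3, or without iMSBmal1KO replicate 2, 3 or 4, and its log2 change was then -1.96 to -2.20. Without Vehicle replicate 4, 3 member regions passed, the added one being 5191589 to 5191725.

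Further along the same intron the values alternated. The region 5191589 to 5191725 was not past the threshold, at a limma adjusted p of 0.0933. It held 46.9, 53.4, 54.7 and 15.6 in Vehicle against 12.0, 14.2, 9.54 and 6.27 in iMSBmal1KO, again without overlap. The nearby region 5191481 to 5191576, was too weak to be tested, at 11.4 ± 4.43 in Vehicle and 2.42 ± 2.23 in iMSBmal1KO (SD, n = 4 libraries each), and its groups also did not overlap. Between these and the pair that passed, 5191182 to 5191316 gave 5.45 ± 3.89 and 5.83 ± 1.25 (SD, n = 4 libraries each), weak in both groups. The depth behind these values was small in places: the strongest region held 26 to 216 reads per Vehicle library and 7 to 26 per iMSBmal1KO library. Vehicle replicate 4, the shallowest library, was the lowest Vehicle library in the regions from 5190964 and from 5191589, with 7 and 5 reads.

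**Figure D1:**
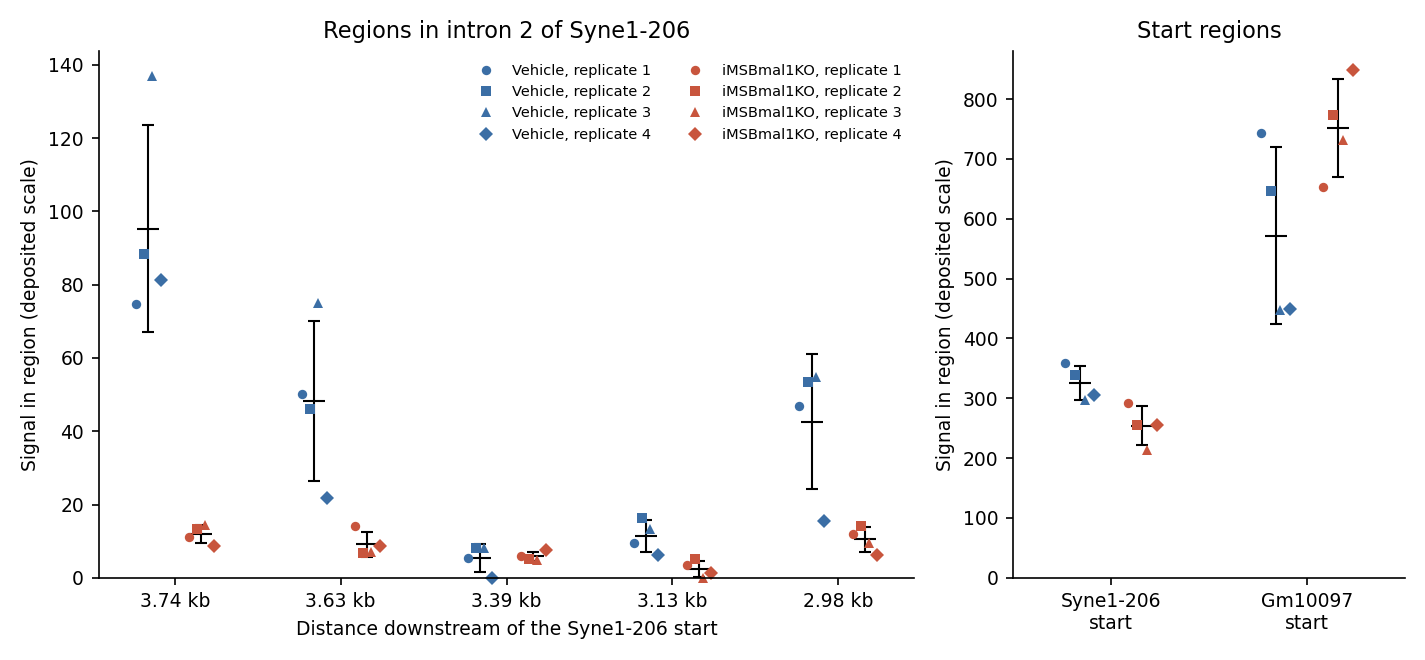
Signal of single regions on the deposited scale (vertical axes start at 0), for 5 regions in intron 2 of Syne1-206 by their distance from its start and for the start regions of Syne1-206 and Gm10097. Points are libraries, with the marker shape giving the replicate number, and bars are the mean and SD of 4. In intron 2 the Vehicle points stand above the iMSBmal1KO points except at the weak middle region, at the Syne1-206 start the groups are close but separate, and at the Gm10097 start they overlap.

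Summed over intron 2, the signal was 190, 217, 295 and 128 in Vehicle and 49.7, 48.5, 40.6 and 32.6 in iMSBmal1KO. The ratio of the means was -2.28 on the log2 scale, and the intron held 7.84% of all Syne1 signal in Vehicle and 1.85% in iMSBmal1KO. The other 202 Syne1 regions together gave 2437 ± 202 in Vehicle and 2269 ± 311 in iMSBmal1KO (SD, n = 4 libraries each), a log2 ratio of -0.10, and the groups overlapped. Within Syne1-206, the regions outside intron 2 gave 659 ± 93.1 and 629 ± 192 (SD, n = 4 libraries each).

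The other strong Syne1 regions, apart from the Syne1-206 start, had overlapping groups. The highest of the gene, 5208169 to 5208777 in an intron of the full-length transcript upstream of Syne1-206, held 413, 414, 346 and 263 in Vehicle and 439, 256, 236 and 184 in iMSBmal1KO, where replicate 1 alone stood with the high Vehicle values. A region over coding exon 55 of the full-length transcript, 5289314 to 5289722, was level at 182 ± 13.4 and 182 ± 17.9 (SD, n = 4 libraries each). One over coding exon 118, 5110896 to 5111200, had 113 ± 32.2 in Vehicle and 150 ± 23.6 in iMSBmal1KO (SD, n = 4 libraries each), with overlap. Of the 172 Syne1 regions too weak to be tested, 1 had separate groups with the higher values in iMSBmal1KO and 4 with the lower. The strongest of these lay over coding exon 89 of the full-length transcript, 5204122 to 5204172, at 11.6 ± 7.13 in Vehicle and 1.65 ± 0.926 in iMSBmal1KO (SD, n = 4 libraries each). The share of untested regions of all genes with separate groups was not counted, so nothing is read from these counts. Of the 38 tested Syne1 regions 15 had a positive and 23 a negative log2 change, and their median was -0.07, which is -0.20 relative to the median of all tested regions. As a whole gene, Syne1 had summed signals of 2755, 2796, 2753 and 2273 in Vehicle and 2757, 2285, 2022 and 2184 in iMSBmal1KO, which overlapped.

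**Figure D2:**
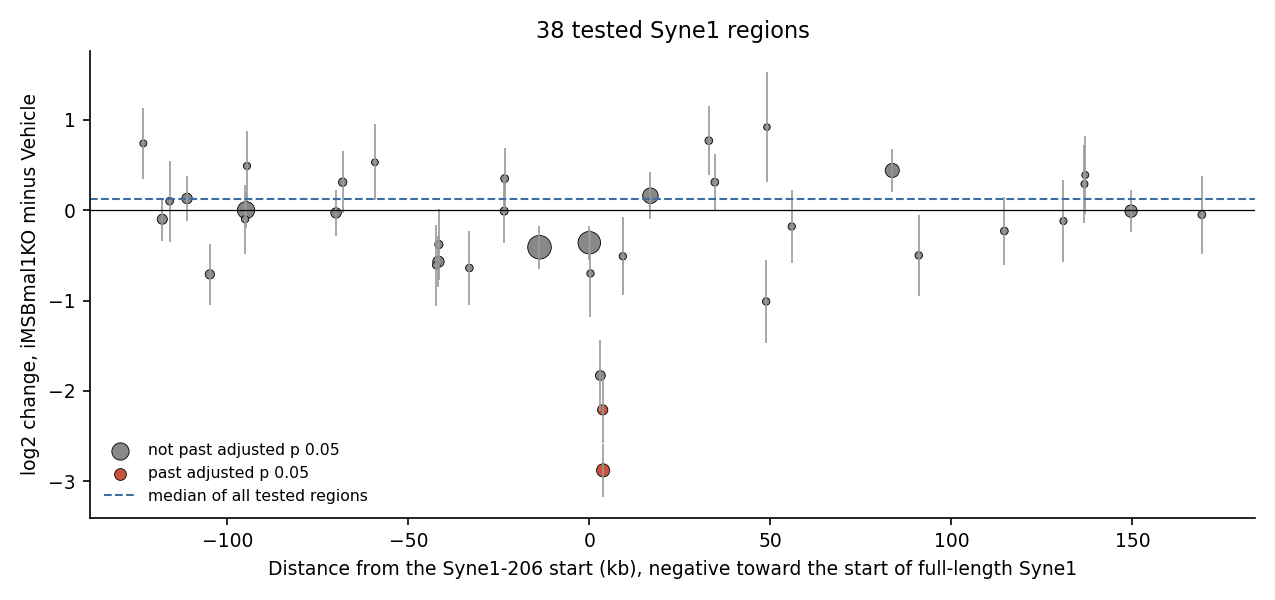
Log2 change (iMSBmal1KO minus Vehicle) of the 38 tested Syne1 regions against distance in kb from the Syne1-206 start, with negative distances toward the start of the full-length transcript. Bars are the SE, point area grows with the Vehicle mean, and the dashed line is the median of all tested regions, 0.12. The 3 lowest points, -1.83 to -2.88, are those of intron 2 of Syne1-206, and no other region lies below -1.01.

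Several regions outside these genes followed the leading intron 2 region of Syne1, 5190823 to 5190963, across the 8 libraries. They were ranked by Pearson correlation of log2 signal over 8 libraries, which share the group difference. At most 1 region per gene was kept, and all intergenic regions together counted as 1 gene. Under that rule the closest were regions of Stx18 (0.9873), an intergenic stretch of chromosome 14 (0.9835), Gm44127 (0.9763), Arid1b (0.9747) and Slc2a3 (0.9717). As they were picked for this correlation among the tested regions of the whole table, nothing is read from its height. Slc2a3, a glucose transporter gene, had the nearest size of difference, at 54.2 ± 14.6 in Vehicle and 7.48 ± 2.82 in iMSBmal1KO (SD, n = 4 libraries each) in a region 385 bp from an annotated start. The Stx18 region went from 18.9 ± 0.975 to 10.5 ± 0.983 (SD, n = 4 libraries each).

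Syne2, the other long nesprin, was open mainly near its far end. A single region, chromosome 12, 76104613 to 76105562, at the end of the retained-intron transcript Syne2-214, held 1723, 1459, 1146 and 1144 in Vehicle and 1181, 1376, 1250 and 1461 in iMSBmal1KO. The groups overlapped, and the log2 change was -0.04 ± 0.17 (SE) at a limma adjusted p of 0.954. It held 73.5% to 80.5% of all Syne2 signal in Vehicle and 70.4% to 77.4% in iMSBmal1KO. The start of full-length Syne2, 75818246 to 75818563, held 74.6, 122, 92.1 and 106 in Vehicle and 103, 155, 132 and 122 in iMSBmal1KO, again overlapping. Per kb the far region stood at 1440 ± 293 in Vehicle and the full-length start at 311 ± 63.8 (SD, n = 4 libraries each), so all 4 Vehicle libraries were higher at the far end. A weak start region of Syne2-204, 76081842 to 76081997, had separate groups, 13.8 ± 2.99 and 20.1 ± 3.30 (SD, n = 4 libraries each), with a limma adjusted p of 0.602.

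Syne3 was also most open away from the start of its longest transcript. The region 104992644 to 104993274 on chromosome 12, annotated as a 5' UTR exon of Syne3-202, held 612, 635, 416 and 544 in Vehicle and 597, 397, 404 and 305 in iMSBmal1KO (log2 change -0.40 ± 0.21, SE, limma adjusted p of 0.571). Its start region at Syne3-201, 105009791 to 105010084, held 206, 188, 139 and 147 against 202, 212, 191 and 204, with a log2 change of 0.27 ± 0.20 (SE). The smallest p of the gene fell on a weak region in intron 17, 104939894 to 104940080, at 17.7 ± 9.32 and 29.3 ± 4.03 (SD, n = 4 libraries each, limma adjusted p of 0.507). Of the 66 tested nesprin regions 33 had a positive and 33 a negative change, and their median relative to all tested regions was -0.13.

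The share of each gene held by its strongest region separates single-site genes from spread ones. Syne1 was the most spread, with 8.44% to 15.9% of its signal in its strongest region in iMSBmal1KO. Emd (77.2% to 85.5%), Sun1 (73.7% to 80.6%) and Syne2 were the most concentrated.

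**Figure D3:**
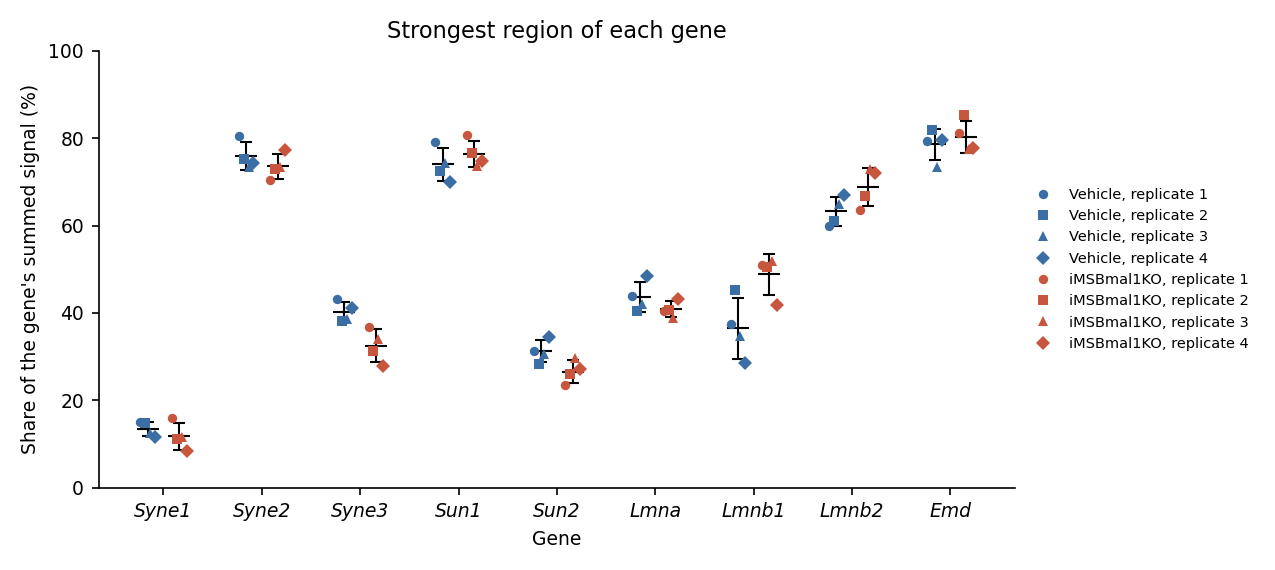
Share (%) of the signal summed over all regions of a gene that fell in its strongest region, for each of the 9 genes. Points are libraries and bars the mean and SD of 4 per group. Syne1 lies below 16% in every library, whereas Syne2, Sun1 and Emd lie above 70% in every library.

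Sun1 and Sun2 encode the inner membrane receptors of the nesprins. The Sun1 start, chromosome 5, 139200231 to 139200908, held 911, 810, 744 and 747 in Vehicle and 825, 967, 712 and 838 in iMSBmal1KO, which overlapped (log2 change 0.05 ± 0.17, SE, limma adjusted p of 0.931). That small positive value turned to -0.06 under median-of-ratios and loess scaling. The other Sun1 regions were weak. Of these, 139241207 to 139241340 had the smallest p of the gene, at 20.6 ± 3.09 and 15.1 ± 6.94 (SD, n = 4 libraries each, limma adjusted p of 0.630).

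Sun2 was open at several places. Its strongest region, chromosome 15, 79733279 to 79733828 in intron 8, held 1100, 885, 1044 and 857 in Vehicle and 679, 817, 848 and 877 in iMSBmal1KO, with a log2 change of -0.27 ± 0.17 (SE) and overlap through iMSBmal1KO replicate 4. A region at the start of the retained-intron transcript Sun2-207, 79735408 to 79735857, held 1017, 900, 735 and 619 against 783, 919, 854 and 935. The start of Sun2-209, a coding transcript, held 411, 429, 487 and 244 against 453, 490, 389 and 401, where Vehicle replicate 4 was the low library. None of the 26 tested regions of Sun1 and Sun2 had separate groups, beside 5.48% of all tested regions. Of the 26, 9 had a positive and 17 a negative change, where 62.0% of all tested regions were positive. Their median relative to all tested regions was -0.32.

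Lmna, which encodes the A-type lamins A and C, had a pair of strong starts whose upstream sequences are given above. The region over the short start, chromosome 3, 88492538 to 88493372, held 1177, 1028, 1056 and 1157 in Vehicle and 1023, 1026, 922 and 1109 in iMSBmal1KO (log2 change -0.12 ± 0.16, SE, limma adjusted p of 0.822). That over the long start, 88502788 to 88503611, held 819, 783, 777 and 641 against 738, 773, 799 and 770. Both overlapped between the groups, and per kb the short start was higher in Vehicle, at 1323 ± 87.9 against 916 for the long start. The start of Lmna-206, held 257 ± 43.9 and 274 ± 42.6 (SD, n = 4 libraries each).

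Away from these starts, 2 weak Lmna regions near the end of the gene had changes of opposite sign. The region 88482281 to 88482410 held 11.7, 17.5, 13.3 and 25.0 against 13.3, 2.51, 7.16 and 12.5 (log2 change -1.0 ± 0.45, SE, limma adjusted p of 0.530), with overlap, and the change was -0.56 without iMSBmal1KO replicate 2. The region 88483818 to 88483952 held 20.3, 23.6, 22.2 and 9.38 against 24.0, 32.1, 23.9 and 32.6, with separate groups and a limma adjusted p of 0.567.

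Lmnb1, a B-type lamin gene, had the lowest log2 change outside Syne1. In its intron 7, chromosome 18, 56742738 to 56742915, the signal was 17.1, 26.7, 32.4 and 37.5 in Vehicle and 12.0, 9.20, 7.16 and 8.78 in iMSBmal1KO. The groups did not overlap, and the log2 change of -1.48 ± 0.34 (SE) had a limma adjusted p of 0.133. The region held 12 to 51 reads per Vehicle library and 6 to 28 per iMSBmal1KO library. In intron 1, 56717509 to 56717771 held 129, 108, 144 and 125 against 65.9, 92.8, 56.1 and 84.0, also separate, and the log2 change was -0.77 ± 0.23 (SE) at a limma adjusted p of 0.349. Its start region held 302, 411, 288 and 181 against 397, 448, 307 and 268, with a change of the other sign, 0.29 ± 0.24 (SE), and overlap. That change was 0.08 without Vehicle replicate 4, 0.17 without iMSBmal1KO replicate 2, 0.47 without Vehicle replicate 2 and 0.15 under loess scaling.

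Lmnb2, the other B-type lamin gene, had a strong region in intron 1 of Lmnb2-203, chromosome 10, 80913894 to 80914501, with 276, 244, 343 and 216 in Vehicle and 235, 403, 333 and 408 in iMSBmal1KO. Its start was weak at 54.4, 52.4, 40.7 and 12.5 against 68.9, 92.0, 42.9 and 48.9, and the log2 change, 0.77 ± 0.40 (SE) at a limma adjusted p of 0.564, was 0.30 without Vehicle replicate 4. A weak region, 80911384 to 80911534, had separate groups at 31.2 ± 6.33 and 22.9 ± 5.04 (SD, n = 4 libraries each). Over the 31 tested lamin regions 15 changes were positive and 16 negative, and the median relative to all tested regions was -0.20.

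Emd encodes emerin, an inner membrane protein that binds lamin A. Its start, chromosome X, 74254552 to 74254909, held 184, 203, 144 and 172 in Vehicle and 206, 202, 134 and 153 in iMSBmal1KO, which overlapped throughout (log2 change -0.03 ± 0.22, SE, limma adjusted p of 0.973). The other 2 tested Emd regions were weak, with at most 14.6 in any Vehicle library and no separate groups.

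Ordered by the level per kb of the strongest start region in Vehicle, the genes ran Sun2 (1817 ± 391, SD, n = 4), Lmna (1323 ± 87.9), Sun1 (1184 ± 116), Lmnb1 (698 ± 222), Syne3 (578 ± 110), Syne1 (543 ± 47.9), Emd (491 ± 70.1), Syne2 (311 ± 63.8) and Lmnb2 (265 ± 128). Every Sun1 library lay above every Lmnb1 library, and every Emd library above every Syne2 library. All other neighbours in this order overlapped. The Lmnb2 mean was pulled down by Vehicle replicate 4, at 82.8 per kb.

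**Figure D4:**
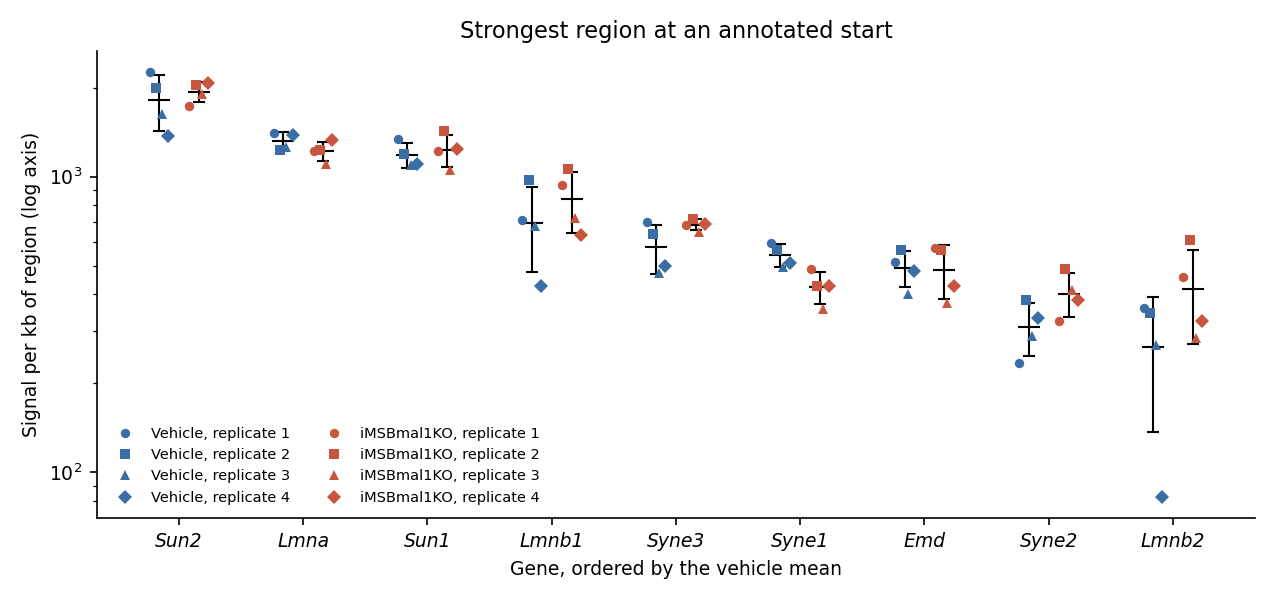
Signal per kb (log axis) of the strongest region within 1 kb of an annotated start, for the 9 genes in the order of their Vehicle mean. Points are libraries and bars the mean and SD of 4 per group. Sun2, Lmna and Sun1 lie above 1000 per kb in every library, and the groups overlap at each gene but Syne1.

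Over the 126 tested regions together, 9 had separate groups (7.14%), beside 5.48% of all tested regions. They were 2 higher in iMSBmal1KO (1.59%, beside 3.62%) and 7 lower (5.56%, beside 1.87%). At an unadjusted limma p under 0.05 there were 9 (7.14%), beside 9.22% of all tested regions. They were 1 higher (0.794%, beside 6.59%) and 8 lower (6.35%, beside 2.63%). Under loess scaling 1 was higher and 16 lower, or 12.7% lower beside 5.22% of all tested regions, and under median-of-ratios scaling the members gave the same counts beside 4.90%. As the genes were selected on this contrast, nothing is read from these shares. The median change was -0.03 and 46.0% were positive, against 0.12 and 62.0% over all tested regions. Without Syne1, 0 of 88 regions passed the threshold by limma-trend and 0 by limma-voom, and the median was -0.02. Of these 88, 5 had an unadjusted limma p under 0.05 (5.68%, beside 9.22% of all tested regions), 1 higher and 4 lower. By limma-voom there were 6, beside 14240 of all 124901 tested regions.

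**Figure D5:**
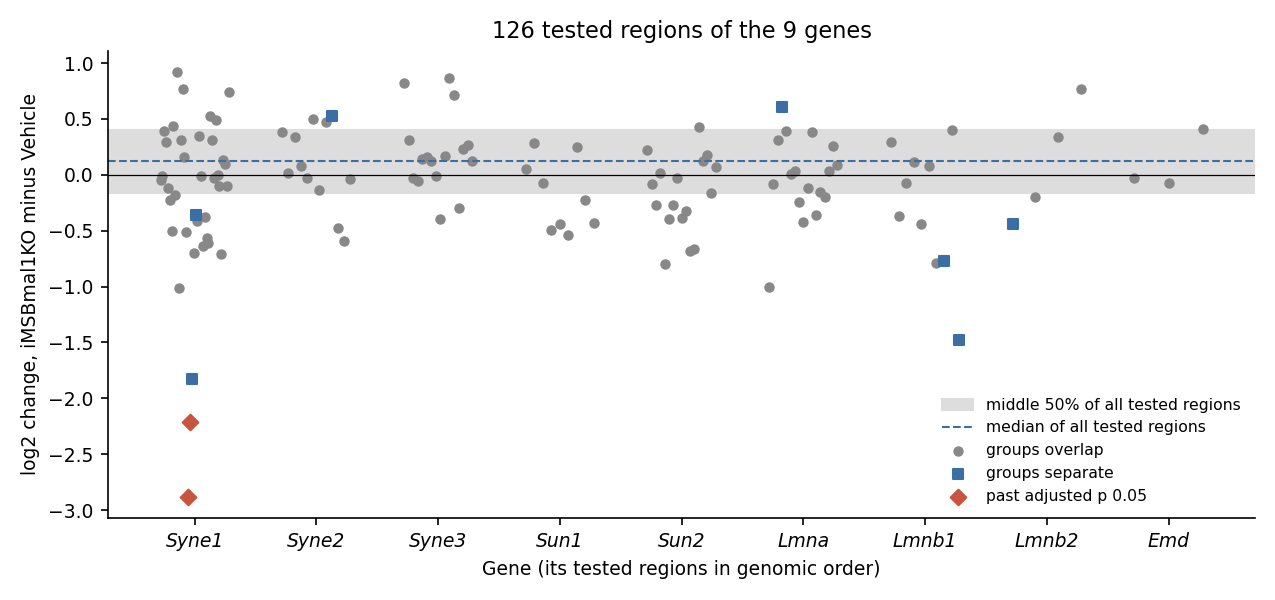
Log2 change (iMSBmal1KO minus Vehicle) of the 126 tested regions by gene, in genomic order within each gene. Diamonds are the 2 Syne1 regions past an adjusted p of 0.05, whose groups are also separate, squares are other regions with separate groups, and circles regions with overlap. The band holds the middle 50% of all tested regions, -0.16 to 0.40, and the dashed line their median of 0.12. Outside Syne1 the lowest square, at -1.48, is in Lmnb1.

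With the signal summed over all regions of a gene, 0 of the 9 genes passed the limma threshold and 0 had an unadjusted p under 0.05, where 0.130% and 9.48% of 22224 genes did. Syne1 had the lowest value, -0.20 ± 0.14 (SE), or -0.30 relative to the median gene, and Lmnb2 the highest, 0.22 ± 0.19 (SE), or 0.11 relative to it. Leaving out a library moved the Lmnb2 value to 0.09 (Vehicle replicate 4), 0.12 (iMSBmal1KO replicate 2), 0.15 (iMSBmal1KO replicate 4) and 0.36 (iMSBmal1KO replicate 1). Without iMSBmal1KO replicate 2, Lmnb1 at -0.24 lay below Syne1, and with promoter regions alone Syne1 stood at -0.39 and Lmnb2 at 0.37. Syne2 was at 0.01 ± 0.14, Sun1 at 0.01 ± 0.14, Sun2 at -0.04 ± 0.14 and Lmna at -0.02 ± 0.12 (SE each).

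Other genes of the nuclear envelope were listed beside these, chosen with earlier results of the data known. Of 27 listed gene names, with synonyms among them, 23 passed the filter by summed signal. The list had 128 tested regions, of which 0 passed the limma-trend threshold, and limma-voom called 1, in Tmpo. At an unadjusted limma p under 0.05 there were 8 higher and 2 lower (7.81% in all, beside 9.22% of all regions). The median change of the 128 regions was 0.07, or -0.05 relative to all regions. Tmpo, which encodes the lamin-binding protein LAP2, had 187, 125, 226 and 125 in Vehicle and 68.1, 102, 64.4 and 74.0 in iMSBmal1KO at chromosome 10, 91164644 to 91164881, without overlap (log2 change -1.07 ± 0.25, SE, limma adjusted p of 0.134). Zmpste24, the protease that matures lamin A, had 57.6, 68.8, 45.8 and 31.3 against 83.9, 116, 82.3 and 70.2 at its start (0.81 ± 0.27, SE, limma adjusted p of 0.427), also separate. Tor1a and Tor1b, ATPases of the envelope, had start changes of 0.52 ± 0.22 and 0.93 ± 0.29 (SE, limma adjusted p of 0.505 and 0.385).

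The partners of the complex at the cytoskeleton, 11 genes such as Plec, Pcm1 and Akap6, had 188 tested regions, with 0 past the threshold by limma-trend or limma-voom and 8 higher and 6 lower at an unadjusted p under 0.05 (7.45% in all, beside the same 9.22%). Their median change was 0.02. A Plec start region, 76229506 to 76229712 on chromosome 15, held 102, 118, 138 and 58.0 in Vehicle and 154, 169, 147 and 141 in iMSBmal1KO, without overlap (limma adjusted p of 0.504), and another Plec start region had the other sign, at -0.79 ± 0.32 (SE).

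Markers of the nuclei that whole muscle holds were measured in the same libraries. Fast-fibre genes (5 of 5) had a summed signal of 7163 to 12798 in Vehicle and 10540 to 12544 in iMSBmal1KO. Slow-fibre genes (4 of 5) had 381 to 479 and 403 to 538. These counts of genes, and those of the lists below, are genes past the filter by summed signal. Of 103 fast-fibre regions 0 passed the threshold by limma-trend or limma-voom, and 16 higher (15.5%, beside 6.59% of all regions) and 1 lower had an unadjusted limma p under 0.05. Of the 16 higher regions 15 were in Myh4, a fast myosin heavy chain gene, and 1 in Ckm, the muscle creatine kinase gene, and the lower one was in Myh1, another fast myosin gene. Of 9 slow-fibre regions 0 passed by either tool, with 0 at an unadjusted p under 0.05 by limma-trend and 1 by limma-voom. Genes of neuromuscular junction nuclei (5 of 5), where nesprin-1 is known to be enriched, had a summed signal of 2276 to 3393 in Vehicle and 3249 to 3826 in iMSBmal1KO, with 0 of 36 regions past the threshold by limma-trend or limma-voom and 8 higher (22.2%, beside 6.59%) at an unadjusted p under 0.05. Of these 8, 4 were in Chrna1, 3 in Colq, which anchors acetylcholinesterase, and 1 in Musk, the kinase that organises the junction. Among them Chrna1, a subunit of the acetylcholine receptor, rose by summed signal, from 70.8 ± 16.6 to 149 ± 25.4 (SD, n = 4 libraries each, limma adjusted p of 0.0388). Further lists were satellite-cell (3 of 4 genes), fibro-adipogenic (4 of 4), endothelial (4 of 4) and macrophage genes (2 of 4). Myotendinous (3 of 3) and smooth-muscle genes (4 of 4) were listed too. All of these lists had 0 regions past the threshold by limma-trend or limma-voom. An unadjusted limma p under 0.05 was held by 2 of 21 satellite-cell, 2 of 11 fibro-adipogenic and 2 of 27 endothelial regions. The same held for 1 of 2 macrophage, 1 of 9 myotendinous and 2 of 20 smooth-muscle regions, beside 9.22% of all tested regions. By limma-voom these counts were 1 satellite-cell, 2 fibro-adipogenic, 5 endothelial, 1 macrophage, 2 myotendinous and 2 smooth-muscle regions. The part of these nuclei in the Syne1 difference was not tested.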

How the data were processed

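Chromatin accessibility was measured in 8 ATAC-seq libraries. The submitters' processing notes name Partek, Bowtie2, MACS2 and DESeq2 and the builds mm10 and GRCm39, without roles, and the removal of duplicates and the transposase shift are not given in the sources used here. The authors deposited 1 table with a signal value per region and library. The deposited signal was a read count multiplied by a factor per library for 98.3% to 99.8% of non-zero values (within 0.02 reads), and division by that factor gave read equivalents. The median tested region held 6 reads in the shallowest and 51.0 in the deepest library, and such counts carry counting error besides the spread between samples.

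All regions were fitted with limma-trend (limma 3.58.1, R 4.3.3), robust, on log2(signal + 1), with group as the only term. Log2 changes are on that scale, which understates changes of weak regions. Regions needed 0.762 read equivalents per M in any 4 of the 8 libraries and 15 in total (124901 kept). The 4 could all be of 1 group, so a region high in 1 group alone could enter. P-values were adjusted by Benjamini-Hochberg over all of them, with a threshold of 0.05. Gene sums were fitted likewise. Deviations from the group means correlated at -0.06 to 0.14 between libraries of the same replicate number, so the main fit used no pairing. Such correlations cannot exclude one. With the replicate number as a block, 116 of 22224 genes passed the limma threshold by summed signal, against 29 without it. Members, lists and tests were chosen with earlier results of these data known. Named were regions past the threshold and their neighbours, and each gene's strongest start region and smallest p. Also named were the 5 regions most like the leading Syne1 region, at most 1 per gene and 1 intergenic. Each gene's strongest region, other regions with separate groups and list genes were named after their values were seen. limma-voom, joined regions and the intron sum were alternatives chosen after seeing the data. Coordinates are counted from 1. Python 3.11.15 and matplotlib 3.10.9 drew the figures.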

Additional observations from a re-analysis of the deposited data

Results flagged for a closer look

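Values of single libraries were screened in 62 groups of 4 values, of which about 1 in 20, or 3.1, would stand out by chance, and 2 did. In the Syne1 region on chromosome 10 from 5550794 to 5550938, by the start of the full-length transcript, Vehicle replicate 4 held 25.0 where the rest of its group held 5.14 to 6.40, and its distance to them was 0.937 of the whole range. For the summed signal of Syne1, Vehicle replicate 4 held 2273 where the rest of its group held 2753 to 2796, a distance of 0.918 of the range. This library was also the shallowest, with 4.31 M read equivalents, and the part of depth in these values was not tested.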

How the results depend on the processing

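The number of member regions past the threshold was 2. It was 0 when every library had to pass the signal minimum, since the Syne1 regions were then not tested, 1 at an adjusted p under 0.01, 1 with abutting regions joined, since both called regions then formed 1, and 1 to 3 when a library was left out. With the replicate block it was 3, as with median-of-ratios factors, loess, no filter and limma-voom, the third region being 5191589 to 5191725 of Syne1. No region of another member was called in any of these fits, and 0 of the 9 genes in every fit of summed signal, with the replicate block too. The log2 change of the leading Syne1 region, which bore on the choice of the genes, was -2.54 to -3.03 over the alternatives. Of 518 values under alternatives for 31 results, 476 kept their direction and side of the threshold. Directions turned for the Sun1 start to -0.06 with median-of-ratios and with loess (-0.02 to 0.13 without a library), for the Sun2-207 start to -1.9e-03 with median-of-ratios (-0.01 to 0.23), for the Emd start to 1.2e-03 and for the Emd region from 74255341 (0.41 ± 0.63, SE) to -0.03 with limma-voom (-0.12 to 0.09 for the start). Summed signal turned to -0.05 with total-signal scaling for Syne2 (-0.06 to 0.10 without a library) and for Sun1 (-0.07 to 0.06). With promoter regions alone it turned to 0.19 for Syne3 (-0.20 to 0.02), 0.09 for Sun2 (-0.14 to 0.02) and 0.19 for Lmnb1, and leaving out a library gave -0.05 to 0.01 for Lmna and -0.15 to 0.04 for Emd. The cause of these turns was not tested. The planned edgeR fit was not run, because some deposited values were not whole reads. Depth limits the weak regions, above all in Vehicle replicate 4.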
